A study of Mus musculus with 12 samples.

Results

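miR-124 is a microRNA (miRNA) that is abundant in neurons, and its reads were taken from small RNA libraries of the mouse hippocampus. Every tag, that is every distinct read sequence with its count, was included if it matched one of the 3 annotated Mir124a hairpins exactly over its whole length. These 3 hairpins are 3 of the 1174 annotated miRNA loci and carry 1 of 1087 miRNA names. A total of 76 distinct tags with 1287614 counts met this rule, out of 30022027 counts that matched any miRNA hairpin, and none of the 76 also matched a hairpin of another name. The 12 libraries came from hippocampi of individual male C57BL/6NCrl mice 6 to 8 weeks old, either untreated (NT) or killed 0.5, 1, 3, 6 or 24 h after an electroconvulsive shock (ECS), which was used to drive neuronal activity in the whole brain. Each condition was sampled in 2 time courses, so that NT-1 and 6h-1 are libraries of the first and NT-2 and 6h-2 of the second, with 1 mouse per time point in each. The untreated mice stayed in their home cage, and the labels name no sham shock.

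miRNAs are cut from a hairpin in 2 steps. Drosha trims the primary transcript in the nucleus and Dicer removes the loop in the cytoplasm, which leaves a short duplex of a 5p and a 3p arm. One arm, the guide, is retained in an Argonaute protein, and the other, the passenger or star, is mostly degraded. The 3p arm is the guide of miR-124. Bases 2 to 8 of the guide, the seed, select the target mRNAs, so a shift of the first base by 1 position gives another seed. In neurons miR-124 is known for repressing transcripts of non-neuronal cells and a regulator of alternative splicing, PTBP1.

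In the GRCm38 build, Mir124a-1 (ENSMUSG00000065597.1) lies at chr14:64590657-64590741 and covers 85 bases inside exon 4 of its host long non-coding RNA, Mir124a-1hg. Mir124a-2 (ENSMUSG00000093073.1) lies at chr3:17795662-17795770, covers 109 bases and falls in intron 2 of the host Mir124-2hg in most of its annotated transcripts. Mir124a-3 (ENSMUSG00000065454.2) lies at chr2:180894040-180894107 with 68 bases, and only its last bases overlap an annotated non-coding transcript, Gm27032. All 3 are on the plus strand. The arms of the 3 hairpins are alike over the length of a read. Of the 1287614 counts, 1287525 (99.9931%) belonged to 63 tags that matched all 3 loci, so the counts do not say which locus was transcribed. The few tags that matched a single locus were 1 tag with 4 counts for Mir124a-1 and 10 tags with 82 counts for Mir124a-2. No tag matched Mir124a-3 alone. Of the 82 counts, 80 lay ahead of both arms. Only the annotated hairpins were searched, and those of Mir124a-1 and Mir124a-3 are shorter, with 85 and 68 bases against 109. Whether the shorter entries reach far enough ahead of the arms to hold such tags was not tested. These 80 counts therefore do not say which locus was transcribed.

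Sequencing depth differed between the libraries. The library with the fewest accepted reads was 6h-2 (1897490) and that with the most 0.5h-2 (7657222), and miRNA hairpins received 439336 counts in 6h-1 and up to 4282006 in NT-2. Of the 469 miRNA arms with enough counts to test, 151 (32.2%) differed between the time courses. One table of the study prints the untreated libraries under exchanged numbers, whereas its mapping summary and the deposited read totals follow the labels, which were used here. Comparisons between the time courses rest on this numbering. With the untreated numbers exchanged, edgeR called 0 of the 469 arms between the time courses and found 76 at an unadjusted p under 0.05. NT-1 stood apart from the other 11 libraries, since 59.6% of its counts in other miRNAs were tags of 18 or 19 nt, against 0.715% to 16.5% elsewhere. In bulk tissue, fewer cells of a type and less RNA per cell cannot be told apart.

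The 3p arm accounted for 48 tags and 1285570 counts, or 4.28% of all miRNA counts, and the 5p arm for 28 tags and 2044 counts. miR-124-3p was therefore among the most abundant miRNA arms of the hippocampus in all 12 libraries, ranking first in NT-1 and 1h-1 and between 4 and 15 elsewhere. In the first time course it made up 26.2% of miRNA counts in NT-1, 3.49% in 0.5h-1, 10.4% in 1h-1, 6.53% in 3h-1, 7.88% in 6h-1 and 4.02% in 24h-1. In the second time course it made up 2.63% in NT-2, 3.59% in 0.5h-2, 2.28% in 1h-2, 1.01% in 3h-2, 9.34% in 6h-2 and 1.78% in 24h-2. The highest and the lowest share were 25.8-fold apart, and 10.3-fold apart without NT-1. Counting error was small beside this spread, since the Wilson 95% interval of the lowest share, in 3h-2, ran from 1.01% to 1.02%. Intervals given here cover counting error alone, and reads amplified by PCR are not independent molecules.

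**Figure D1:**
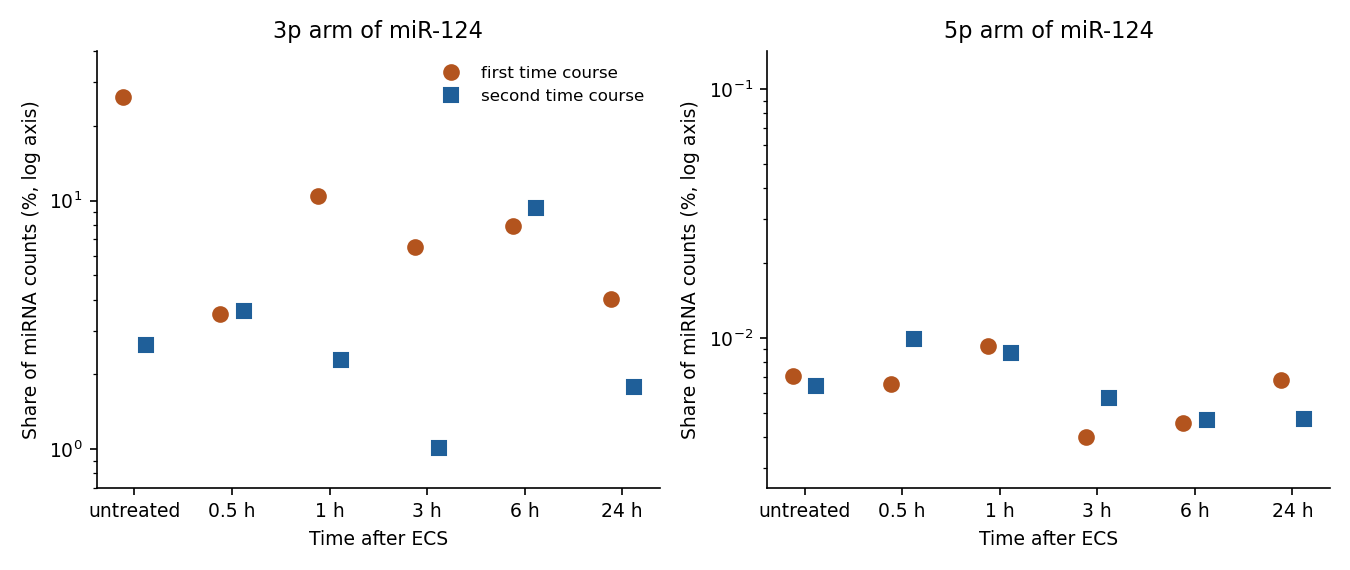
Share of miRNA counts (%, log axis) held by the 3p arm (left) and the 5p arm (right) of miR-124 in each of the 12 libraries, by time after ECS. Circles are the first and squares the second time course, with 1 mouse per point, and both axes span the same ratio. The 3p arm ranges from 1.01% to 26.2%, whereas the 5p arm stays between 0.0040% and 0.0099%.

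The untreated libraries differed widely in this share. NT-1 had the highest 3p share of all libraries, while 2 libraries of the second time course exceeded NT-2. The 3 other leading arms of the untreated libraries, 2 of the let-7 family and miR-128-3p, were lower in NT-1. From NT-1 to NT-2 the share of let-7f-5p went from 10.1% to 20.1%, that of let-7g-5p from 1.62% to 18.7%, and that of miR-128-3p, another neuron-enriched miRNA, from 2.67% to 7.07%. The 24 other arms of the neuron-enriched list together made up 5.55% of NT-1, against 11.2% to 12.4% in the other 5 libraries of the first time course and 4.99% to 9.39% in the second. NT-1 thus combined the highest share of miR-124-3p with the lowest share of the other neuron-enriched arms in its time course. With tags of at least 20 nt alone the 3p share was 38.7% in NT-1 and 0.819% to 9.73% in the other 11 libraries.

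The first question of the design was whether ECS changed miR-124. In CPM (counts scaled to one common library size, here with TMM factors), miR-124-3p stood at 174316 for NT-1 and 28883 for NT-2. The first and the second time course gave 30750 and 37051 CPM 0.5 h after ECS, 55460 and 23035 CPM after 1 h, and 76854 and 15217 CPM after 3 h. After 6 h they gave 56263 and 144131 CPM, and after 24 h 41683 and 24914 CPM. These values lay between those of NT-1 and NT-2 except in 1h-2, 3h-2 and 24h-2, which were lower than NT-2. The log2 fold change against untreated was -1.58 (SE 1.11) after 0.5 h, -1.37 (SE 1.10) after 1 h and -1.14 (SE 1.09) after 3 h. After 6 h it was -0.02 (SE 1.08), and after 24 h -1.61 (SE 1.11). None passed edgeR's quasi-likelihood test, with adjusted p-values of 0.988 to 1.000, and 0 of the 469 arms (0%) did at any of the 5 times. At an unadjusted p under 0.05 the numbers of arms were 9, 2, 10, 9 and 7 in order of time, and DESeq2 called 1, 0, 2, 0 and 0 arms.

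Scaling to the total miRNA count moved the median of all arms, most at 3 h, where it went from 0.15 to -0.45. Relative to that median the values of miR-124-3p were -1.73, -1.37, -1.29, -0.03 and -1.84 in order of time with TMM and -2.08, -1.44, -1.48, -0.44 and -2.15 with total counts.

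The sign of these changes depended on whether NT-1 was included. Without that library the log2 fold changes in edgeR were 0.28, 0.48, 0.71, 1.84 and 0.25 in order of time. This fit sets libraries of both time courses against NT-2 alone. Within the second time course, CPM was lower than in NT-2 (28883) in 1h-2 (23035), 3h-2 (15217) and 24h-2 (24914). It was higher in 0.5h-2 (37051) and 6h-2 (144131). The difference in the share of miRNA counts also changed sign without NT-1. The mean of the 10 libraries after ECS was 5.04% ± 3.29 (SD, n = 10) against 14.4% ± 16.7 (SD, n = 2), and within the time courses the difference was -9.37 percentage points (exact permutation test, two-sided, p = 0.0833, adjusted p = 0.2 over 12 comparisons). The smallest p this design allows is 0.0278. Without NT-1 the first time course has no untreated library, so this comparison uses the second alone. There the difference was 0.97 percentage points in the other direction. The plot of fold changes after ECS shows both sets of values.

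**Figure D2:**
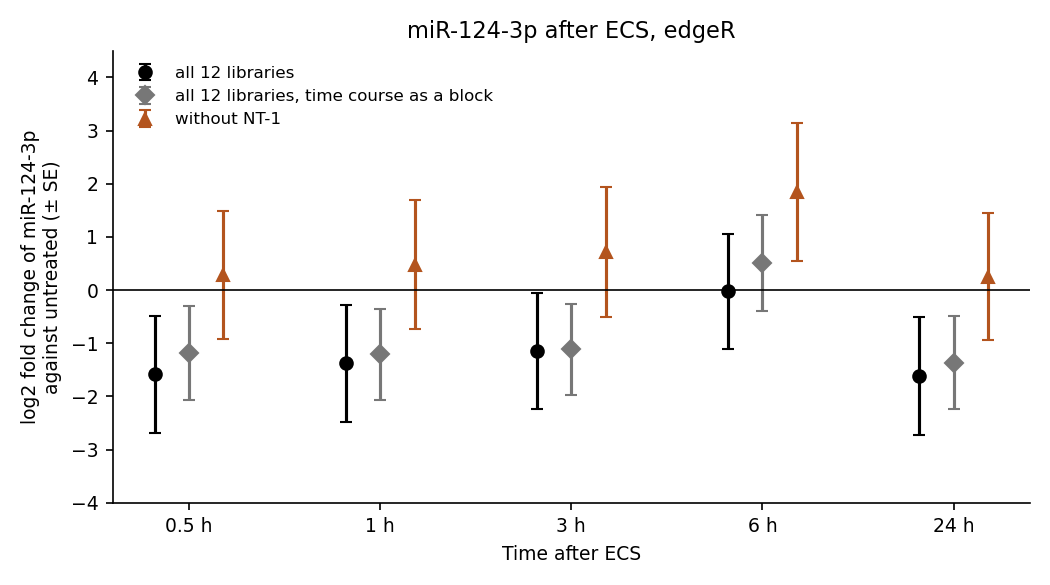
log2 fold change of miR-124-3p against untreated (edgeR, bars are the SE) at 5 times after ECS. Black circles use all 12 libraries, grey diamonds add the time course as a block, and triangles leave out NT-1. The triangles thus set both time courses against NT-2 alone. The circles lie between -1.61 and -0.02 and the triangles between 0.25 and 1.84.

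With the time course as a block the log2 fold change at 6 h was 0.52 (SE 0.90), or -0.03 (SE 1.06) with the untreated numbers exchanged, and the other 4 kept their sign, with 0 arms called by edgeR at any time. The libraries 6h-1 and 6h-2 were the libraries with the fewest miRNA counts in the first time course and in the second, 439336 and 1321437, and 6h-2 also had the fewest accepted reads. The part of depth in the 6 h values was not tested.

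The second question was how far the 2 time courses differed. The 3p share of the first time course averaged 9.76% ± 8.44 and that of the second 3.44% ± 3.01 (SD, n = 6 each), and at 4 of 6 time points the second gave the lower value. The mean difference of -6.31 percentage points gave p = 0.125 in an exact permutation test over flips within time points (two-sided, adjusted p = 0.214), where 0.03125 is the smallest p possible. With the untreated numbers exchanged it was 1.54 percentage points (exact p = 0.906). As a share of all accepted reads the difference was -0.402 percentage points (exact p = 0.656). In edgeR the log2 difference was -0.91 (SE 0.54, adjusted p = 0.200), beside a median of 0.29 over all 469 arms. The 6 h libraries decided on which side of the threshold of 0.05 this value lay. Without 6h-1 it was -1.34 (adjusted p = 0.0498) and without 6h-2 it was -1.47 (adjusted p = 0.0332). Scaling to the total miRNA count moved the median of all arms to -0.30 and that of miR-124-3p to -1.52 (adjusted p = 0.0275). Relative to the median of all arms the values were -1.20 with TMM and -1.23 with total counts.

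The tags of miR-124-3p did not all begin at the same base. The most abundant first base, called the main start here, carried 1080946 counts (84.1%). The base before it (upstream) carried 104581 counts (8.14%) and the base after it (downstream) 99226 counts (7.72%), and 8 further start positions together held 817 counts. Of the 111 miRNA arms with at least 10000 counts, 22 had a smaller share at their leading start, and the median share was 98.99%. miR-124-3p thus belonged to the less uniform arms at the 5′ end, on which the seed depends.

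The share of the upstream start was 2.22% in NT-1, 7.11% in 0.5h-1, 6.21% in 1h-1, 9.86% in 3h-1, 6.09% in 6h-1 and 9.09% in 24h-1. In the second time course it was 12.9% in NT-2, 9.79% in 0.5h-2, 12.3% in 1h-2, 11.4% in 3h-2, 10.3% in 6h-2 and 11.6% in 24h-2. NT-1 was the lowest and NT-2 the highest of the 12. The share of the downstream start was 13.7% in NT-1, 22.2% in 0.5h-1, 7.46% in 1h-1, 6.19% in 3h-1, 16.3% in 6h-1 and 7.83% in 24h-1. In the second it was 3.37%, 3.47%, 2.91%, 3.40%, 2.59% and 3.13% in the same order. The downstream start was therefore more frequent in every library of the first time course than in any library of the second. The downstream start exceeded the upstream one in 4 of 6 libraries of the first time course and in 0 of 6 of the second.

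**Figure D3:**
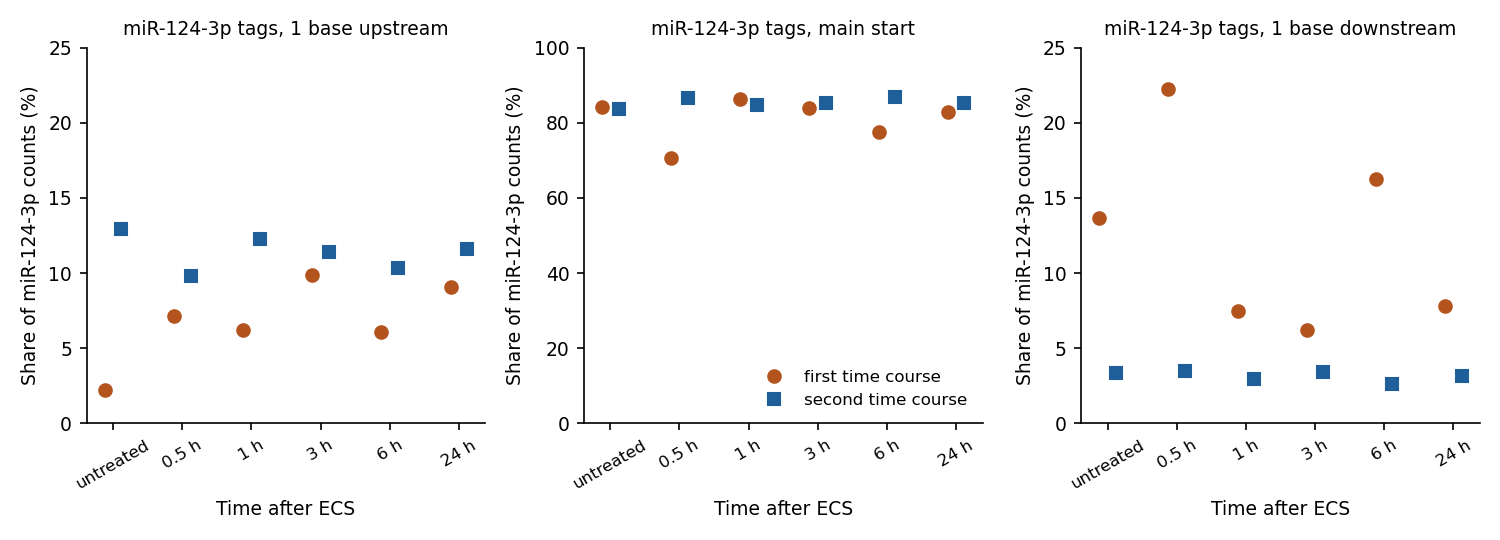
Share of miR-124-3p counts (%) with the first base 1 base upstream of the main start, at the main start or 1 base downstream of it, by time after ECS, with 1 library per point (axes to 25%, 100% and 25%). The downstream shares lie between 6.19% and 22.2% in the first time course (circles) and between 2.59% and 3.47% in the second (squares).

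Both shifts reached the smallest p that the design allows but did not pass adjustment. The upstream share averaged 6.76% ± 2.70 against 11.4% ± 1.17 (first against second time course, SD, n = 6 each), and each of the 6 time points showed the higher value in the second (exact permutation test, p = 0.03125, adjusted p = 0.125). The downstream share averaged 12.3% ± 6.28 against 3.14% ± 0.342 (SD, n = 6 each), and all 6 time points showed the lower value in the second (exact p = 0.03125, adjusted p = 0.125). Both measures were chosen after the start positions had been seen. With the untreated numbers exchanged the differences were 1.05 percentage points for the upstream (exact permutation test, p = 0.719) and -5.70 for the downstream share (exact p = 0.25). The share at the main start was 80.9% ± 5.86 in the first and 85.4% ± 1.23 in the second time course (SD, n = 6 each), which did not pass the exact test (p = 0.1875, adjusted p = 0.281).

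ECS was not associated with a shift of the start that the design could show. The main start share differed by -0.872 percentage points between libraries after ECS and untreated libraries (exact permutation test, p = 0.944). This value turned to 0.345 without 0.5h-1. In the second time course alone, which is what remains without NT-1, it was 2.09. For the upstream share the difference was 1.80 percentage points (exact p = 0.333), and -1.85 in the second time course alone. For the downstream share it was -0.96 percentage points (exact p = 0.917).

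Start and end were coupled. Counted from the main start as position 1, tags with the main start most often ended at position 21, which makes a tag of 21 nt, in 12 of 12 libraries. Tags with the downstream start also ended most often at position 21, as tags of 20 nt, in 12 of 12 libraries. Tags with the upstream start ended most often at position 19, likewise as tags of 20 nt, in 11 of 12 libraries, and in NT-1 at position 18. Summed over the libraries, an end at position 19 was found in 59.8% of the tags with the upstream start, 19.9% of those with the main start and 1.03% of those with the downstream start. The order of upstream over main start held in 11 of 12 libraries, all but NT-1, and that of main over downstream start in 12 of 12. The files hold no tag under 18 nt, so an end at position 19 is the shortest tag that the downstream start can show, and the gel cut of the library preparation bears on all lengths. The part of either in this order was not tested.

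**Figure D4:**
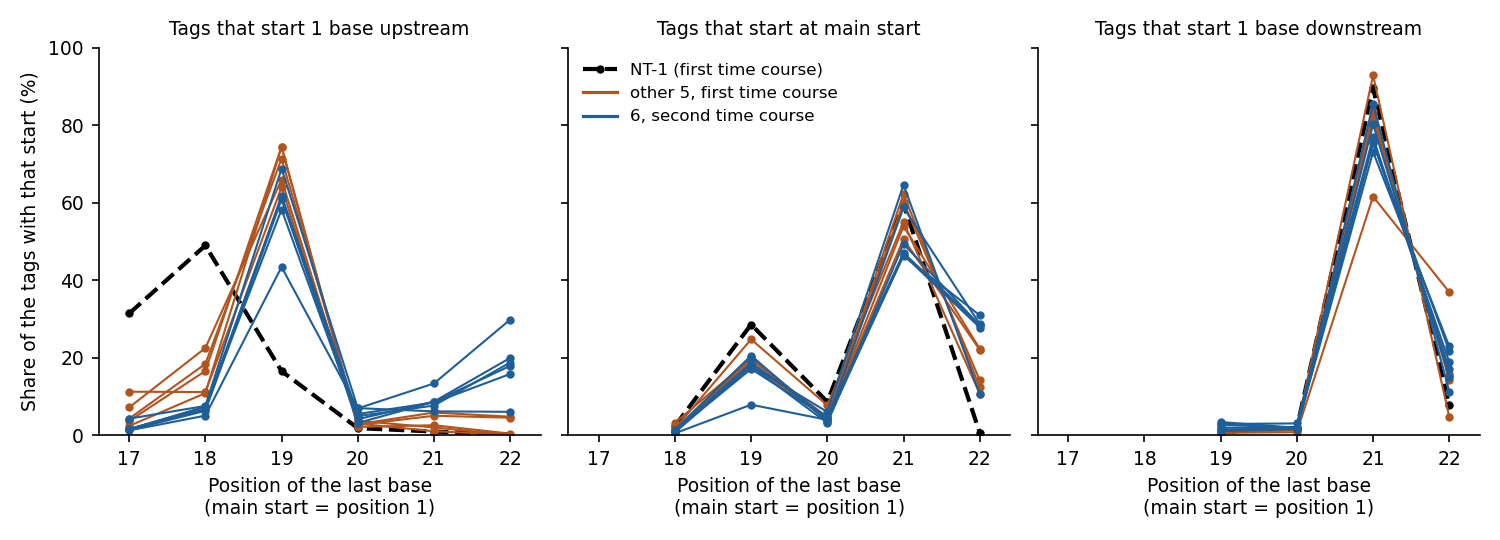
Position of the last base of miR-124-3p tags (main start = position 1) as a share (%) of the tags with the same first base, in 3 panels for the first base, with 1 line per library. The broken black line is NT-1. Tags from the upstream start peak at position 19 in 11 of 12 libraries, and those from the main and the downstream start at position 21 in all 12.

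The length of the main-start tags also differed between the time courses. Their mean length was 20.28 nt in NT-1, 20.69 nt in 0.5h-1, 20.65 nt in 1h-1, 20.66 nt in 3h-1, 20.48 nt in 6h-1 and 20.78 nt in 24h-1. In the second it was 20.83, 21.08, 20.86, 20.79, 20.67 and 20.89 nt in the same order. Tags were longer in the second time course for each of the 6 time points, by 0.262 nt on average (20.59 nt ± 0.181 against 20.85 nt ± 0.134, SD, n = 6 each, exact permutation test, p = 0.03125, adjusted p = 0.125), and by 0.078 nt with the untreated numbers exchanged (exact p = 0.594). The ECS comparison gave 0.200 nt (exact p = 0.111), and 0.026 nt in the second time course alone, which is what remains without NT-1. The tag of 22 nt, which ends at position 22, moved with this difference. It made up 0.699% of the main-start tags in NT-1, 10.7% to 22.4% in the other 5 libraries of the first time course, 10.7% in 6h-2 and 27.8% to 31.0% in the other 5 libraries of the second.

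Short tags were frequent in miR-124-3p. Tags of 18 or 19 nt made up 17.5% to 28.2% of its counts in the first and 8.03% to 20.01% in the second time course. In all other miRNAs the range was 3.99% to 59.6% in the first and 0.715% to 2.36% in the second. miR-124-3p had the higher share in 11 of 12 libraries, with NT-1 as the exception.

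The 5p arm, the passenger strand, was rare and more even than the guide. It held between 0.0040% and 0.0099% of miRNA counts, a 2.48-fold range, and ranked between 162 and 207 among the arms. Its counts were 75 in NT-1, 115 in 0.5h-1, 127 in 1h-1, 60 in 3h-1, 20 in 6h-1 and 150 in 24h-1, and 274, 386, 343, 238, 62 and 194 in the same order of the second time course. The leading start carried 1835 of the 2044 counts (89.8%), and its leading tag of 21 nt alone 1186 counts (58.0%). A start 2 bases further on held 114 counts (5.58%). Against untreated the log2 fold changes of the 5p arm were 0.45, 0.24, 0.19, -0.15 and 0.22 in order of time, each with an SE of 0.92, and none went past edgeR's test (adjusted p of 0.988 or more). The second time course was higher by 0.69 (SE 0.42, edgeR, adjusted p = 0.209).

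A further 80 of the counts assigned to the 5p side came from 8 tags of 18 to 23 nt that lie just before the 5p arm. Among the annotated hairpins they match Mir124a-2 alone, which has the longest entry. Whether the shorter entries of the other loci hold the bases before the arm was not tested. The cut by Drosha sets the first base of a 5p arm, and 76 of these counts ended at the base just before it. They were found in 10 libraries, with 28 in NT-1, 14 in 1h-1 and 0 in 6h-1 and 1h-2. Without them the 5p arm of NT-1 held 47 counts.

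The balance of the arms varied more than the 5p arm itself. Per 1000 counts of miR-124-3p there were 0.268 counts of miR-124-5p in NT-1, 1.88 in 0.5h-1, 0.895 in 1h-1, 0.612 in 3h-1, 0.578 in 6h-1 and 1.68 in 24h-1. In the second time course there were 2.43 in NT-2, 2.76 in 0.5h-2, 3.83 in 1h-2, 5.66 in 3h-2, 0.503 in 6h-2 and 2.65 in 24h-2. The lowest values were those of NT-1 and the 6 h libraries, and the intervals of 6h-1 (0.374 to 0.892) and 6h-2 (0.392 to 0.644) overlapped. The ratio was higher in the second time course for 5 of 6 time points (2.97 ± 1.70 against 0.985 ± 0.649, SD, n = 6 each, exact permutation test, p = 0.0625, adjusted p = 0.1875). Without the tags just before the 5p arm, NT-1 stood at 0.168 in place of 0.268 and 3h-2 at 5.49, and the difference between the time courses was 2.02 per 1000 (exact p = 0.0625). With the untreated numbers exchanged it was 1.26 per 1000 with all tags (exact p = 0.3125). The difference between ECS and untreated libraries was 0.754 per 1000 (exact p = 0.417). The ratio contains the 3p counts, so it is not independent of the 3p share.

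**Figure D5:**
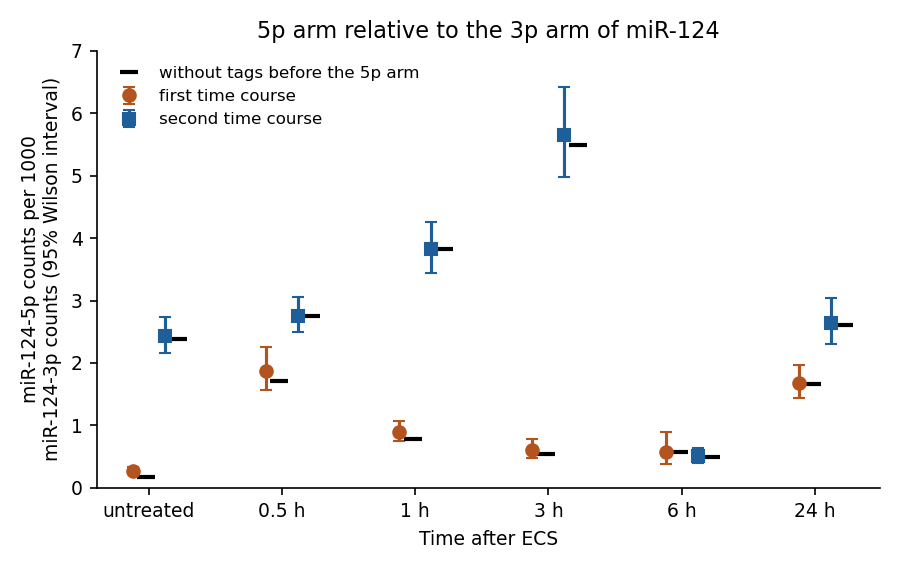
Counts of miR-124-5p per 1000 counts of miR-124-3p in each library by time after ECS, with 95% Wilson intervals (counting error alone). Circles are the first and squares the second time course, and the black dash beside each is the ratio without the tags just before the 5p arm. With all tags, values run from 0.268 in NT-1 (0.168 without these tags) to 5.66 in 3h-2, and at 6 h the time courses lie at 0.578 and 0.503.

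The seed of miR-124-3p at its main start was not found in another arm. Among the 693 arms with at least 10 counts, 0 had the same bases 2 to 8 as the main start or the downstream start in their leading tag. The upstream start shared them with 1 arm, miR-6540-5p, which had 2736 counts in all, with a lowest value of 93 in 6h-1 and a highest of 365 in NT-2. The tags of the upstream start of miR-124-3p were far more numerous, at 104581 counts.

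The 5 arms whose pattern over the 12 libraries was most like that of miR-124-3p were miR-322-5p, miR-3106-5p, miR-15b-5p, miR-411-3p and miR-551b-3p. The measure was Pearson's r of log2 CPM with TMM scaling, taken over the arms that had 10 or more counts in each library, whose median r was -0.15. It was 0.91 for miR-322-5p, 0.91 for miR-3106-5p, 0.89 for miR-15b-5p, 0.88 for miR-411-3p and 0.83 for miR-551b-3p, and 0.90, 0.92, 0.86, 0.86 and 0.83 after the mean of each time course was taken off. The 12 points share libraries, depth and batch, so these values are a description. Without NT-1 they ranged from 0.76 to 0.92. Other arms then lay above some of the 5, such as miR-380-3p at 0.88 beside miR-551b-3p at 0.76. All 5 arms were scarce beside miR-124-3p, with miR-551b-3p reaching at most 0.105% and miR-322-5p at most 0.0150% of miRNA counts, both in NT-1. The mature sequences of 4 of them are shown from RefSeq (GRCm38.p6), with bases 2 to 8 in capitals, because miR-322-5p (chrX:53054306-53054327, minus strand) and miR-15b-5p (chr3:69009775-69009796, plus strand) have this seed in common while miR-411-3p (chr12:109710225-109710246, plus strand) and miR-551b-3p (chr3:29416879-29416899, plus strand) each have another.
miR-322-5p: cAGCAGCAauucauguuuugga
miR-15b-5p: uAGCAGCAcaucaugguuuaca
miR-411-3p: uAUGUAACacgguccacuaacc
miR-551b-3p: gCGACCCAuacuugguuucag

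miR-124 belongs to a set of miRNAs that are enriched in neurons, of which 24 other arms were tested. After ECS 0 of the 24 passed edgeR's test at any time, 0 did so at an unadjusted p under 0.05, and DESeq2 called 0. Between the time courses 6 of the 24 were higher in the second and 2 lower, beside 93 higher (19.8%) and 58 lower (12.4%) among all 469. The median log2 difference was 0.27, beside 0.29 among all 469. At an unadjusted p under 0.05 in edgeR there were 11 of the 24, beside 214 of all 469. DESeq2 called 11 of the 24, and its count over all arms is not given here. With scaling to the total count 2 were higher and 4 lower, beside 49 higher and 113 lower among all arms. The largest in share was miR-128-3p, with a mean of 6.67% in the first and 5.19% in the second time course, and it did not pass the test (log2 difference 0.29, adjusted p = 0.617). miR-138-5p, known from dendritic spines, was lower in the second time course with 1.41% and 0.272% (log2 difference -1.80, adjusted p = 0.0109). miR-7-5p, which is expressed in neuroendocrine cells, was higher with 0.160% and 0.371% (log2 difference 1.49, adjusted p = 0.0422), and miR-212-5p, from the activity-regulated cluster with miR-132, with 0.0622% and 0.205% (log2 difference 2.19, adjusted p = 0.0111). miR-9-5p, a regulator of neural progenitors, stood at 1.94% and 0.944% (log2 difference -0.53, adjusted p = 0.341). Arms entered the list by annotated name, which took in miR-7j-5p and miR-7k-5p. In edgeR miR-7j-5p was among those called higher (log2 difference 3.20, adjusted p = 0.0080). miR-7k-5p was among those called lower (log2 difference -5.65, adjusted p = 0.00023). Whether these arms belong with the neuronal miR-7 was not tested.

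Markers of other cell types were read between the time courses in the same way, against the shares of 19.8% of all arms higher and 12.4% lower. Of the 6 vessel wall arms (miR-126, miR-143 and miR-145), which summed to 6.30% to 14.5% of miRNA counts in the first and 0.565% to 1.65% in the second time course, 2 were lower in the second in edgeR's test. Nearly all of this sum was miR-143-3p, an arm of smooth muscle, with a mean of 9.48% in the first and 1.06% in the second (log2 difference -2.59, adjusted p = 0.0022). The endothelial arms did not pass, with log2 differences of 1.30 for miR-126a-3p (adjusted p = 0.0895) and -1.21 for miR-126a-5p (adjusted p = 0.0652). The red blood cell arms (miR-451, miR-144 and miR-486) had 1 of 5 lower, and the values of the 5 had both signs. It was miR-144-3p that was lower, with a mean of 0.0721% in the first and 0.0039% in the second (log2 difference -3.82, adjusted p = 0.0019), and it had 2041 counts in NT-1, where miR-451a-5p had 5. The value of miR-451a-5p, the most characteristic of the list, was 1.59 (adjusted p = 0.0665). Of the 2 leukocyte and microglial arms tested, miR-142-5p was lower with 0.528% and 0.0685% (log2 difference -2.60, adjusted p = 0.0062) and made up nearly the whole sum of its list, while miR-146-5p stood at 1.25 (adjusted p = 0.126). The defining myeloid arm miR-223-3p had at most 2 counts in a library, and miR-155-5p at most 1.

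The other lists had few calls. Oligodendrocyte arms (miR-219 and miR-338) had 0 of 4, with 0.273% in NT-1, the lowest of the 12 libraries, and 1.82% at most. Choroid plexus and ciliated epithelium arms had 1 of 5 higher and muscle arms 0 of 3, and the liver arm, miR-122-5p, was higher in the second time course at no more than 0.0321%. At an unadjusted p under 0.05 in edgeR, 214 of all 469 arms differed between the time courses. At that threshold the counts were 4 of 6 for vessel wall, 4 of 5 for red blood cell and 1 of 2 for leukocyte arms. They were 1 of 4 for oligodendrocyte, 2 of 5 for choroid plexus and 2 of 3 for muscle arms. DESeq2 called 4, 4, 1, 0, 2 and 2 in the same order, and its count over all arms is not given here. The part of these cell types in the values of miR-124 was not tested.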

How the data were processed

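Small RNA was cut from denaturing gels, ligated to adapters with T4 RNA ligase, amplified and sequenced on an Illumina Genome Analyzer IIx. The authors trimmed adapters with the miR-Intess pipeline and deposited raw counts per distinct read of at least 18 nt, not aligned or normalised. Reads with mismatches or bases added at the 3′ end do not enter the counts of exact matches used here, and T4 RNA ligase favours some read ends, which bears on the levels.

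Tags were matched to hairpins of GENCODE mouse release M21 (GRCm38), since the deposited tags carry no coordinates. A tag that matched several miRNA names was divided equally among them (0.899% to 4.83% of miRNA counts) and rounded after summing. Counts of the 469 arms that reached 10 counts in 2 or more libraries were tested with edgeR 4.0.16 (TMM, quasi-likelihood test, Benjamini-Hochberg adjustment, R 4.3.3). The script was tested on simulated counts. The SE given for edgeR is the absolute log2 fold change divided by the square root of the F statistic of its test. DESeq2 1.42.0 was an alternative. Shares were tested with exact permutation tests (Python 3.11.15). Shares of a library carry 95% Wilson intervals.

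Replicate numbers mark the time course. Deviations from group means of libraries with the same number correlated at 0.567 on average (0.363 to 0.812, 15 pairs of time points, 212 arms), with the untreated libraries numbered as labelled. No pair of libraries was alike within counting noise. Named arms were the members, arms with the same bases 2 to 8, the 3 leading other arms in untreated libraries, the 5 most alike arms and the neuron-enriched list. The members and lists were chosen with earlier results of these data known.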

Additional observations from a re-analysis of the deposited data

Results flagged for a closer look

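In NT-1 the share of miR-124-3p was 26.2% of miRNA counts, and the nearest library of the first time course was at 10.4%, a gap of 0.695 of the whole range. In 6h-2 it was 9.34%, with the nearest library of the second time course at 3.59% (0.690 of the range). The tag of 22 nt made up 10.7% of the main-start tags in 6h-2, with the nearest library of that time course at 27.8%. Tags of 18 or 19 nt made up 8.03% of miR-124-3p counts in 0.5h-2, with the nearest at 16.6%. These 4 came from 16 groups of 6 libraries, and chance alone flags about 1 in 20 groups.

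The share of the upstream start of miR-124-3p changed after ECS by 5.45 percentage points on average in the first time course, where all 5 libraries lay above NT-1. It changed by -1.85 percentage points in the second, where all 5 lay below NT-2. The difference between the time courses was not tested, and each rests on 1 untreated library.

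Beside the exact tags of the main start, 274036 counts had the first 18 bases of that start and then departed from the hairpin, which is 20.2% of all counts at that start (11.1% in NT-1 to 26.2% in 3h-2). An added T accounted for 129806 of them and an added A for 39837. On the antisense strand of the hairpins 96 counts of 7 tags were found in 10 libraries, with a highest value of 28 in 1h-2 and 0 in NT-1 and 3h-1.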

How the results depend on the processing

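Leaving out single libraries moved the ECS values most. Without NT-1 or NT-2 the edgeR fits set both time courses against the 1 untreated library that remains. The log2 fold change of miR-124-3p ranged from -2.36 to 0.28 at 0.5 h, -2.19 to 0.48 at 1 h, -3.23 to 0.71 at 3 h, -1.13 to 1.84 at 6 h and -2.39 to 0.25 at 24 h, with the upper end in each case without NT-1. That of miR-124-5p ranged from -0.019 to 0.832 at 0.5 h, -0.0099 to 0.570 at 1 h, -0.634 to 0.511 at 3 h, -0.901 to 0.305 at 6 h and -0.057 to 0.539 at 24 h. For the ECS difference of shares, both ends of the range were those of 1 time course alone. In the first it was -19.7 percentage points for the 3p share, -3.84 for the main and 5.45 for the upstream start. In the second it was 0.97, 2.09 and -1.85 in the same order. Between the time courses miR-124-3p ranged from -1.47 to -0.55 on the log2 scale, and the number of arms called from 92 (without 1h-1) to 157. The differences that stood at the smallest possible p ranged from 0.204 to 0.293 nt for mean length, 3.40 to 5.24 percentage points for the upstream and -10.4 to -7.20 for the downstream start. With 5 time points left the smallest p is 0.0625, so none could pass.

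Other settings changed few calls. With the replicate block miR-124-3p at 6 h was 0.52 in edgeR, against -0.02 without it, and 0.52 in DESeq2. In edgeR it passed neither with the block (adjusted p = 0.965) nor without it (adjusted p = 0.994), and the block changed no call of miR-124. Arms called by DESeq2 were 1 at 0.5 h and 2 at 3 h, by DESeq2 with the block 2 at 0.5 h, 5 at 3 h and 3 at 6 h, and by edgeR with no filter on low counts 1 at 3 h. Scaling to total counts gave -1.52 for miR-124-3p between the time courses (adjusted p = 0.0275 in edgeR). The sign of miR-124-5p turned at 3 h to -0.46 and at 24 h to -0.23 with total counts, to -0.037 and -0.0023 with no filter, to -0.064 and -0.0060 with tags of 1 miRNA name, to -0.093 and -0.11 with a match of the first 18 nt, and at 6 h to 0.024 with tags of at least 20 nt. The cause was not tested. With the untreated replicate numbers exchanged, a setting chosen after seeing the data, the differences between the time courses were 1.54 percentage points for the 3p share and 0.078 nt for mean length, and 0 arms were called. With 1 untreated library per time course, and 20 to 386 counts of the 5p arm per library, small changes after ECS could not be shown.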
